A study of Mus musculus with 2 samples.

Results

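The 10 genes described here encode core parts of the circadian clock: the activators Arntl, Clock and Npas2, the repressors Per1, Per2, Per3, Cry1, Cry2 and Ciart, and the output regulator Dbp. They were chosen by symbol, and all 10 were found among 55536 annotated genes of the deposited gene tables. Total RNA had been sequenced from the adrenal glands of 2 B6CASTF1/J females, mice that are hybrids of a laboratory and a wild-derived strain, at 4 days of age, and the mice formed 1 group with no other condition. The tables give a single value per gene and none per allele. Values are deposited TPM, the abundance of a gene's transcripts relative to all transcripts, corrected for effective length, with the mean ± SD over both animals (n = 2). The labels name separate biological replicates with a tissue record each, but their texts disagree on which animal gave replicate 2, and both share a donor record. If both libraries came from a single animal, the spread between them would not measure variation between animals. The labels used here do not give the hour at which the glands were taken, so the values are a single unplaced time for each animal.

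In the mammalian clock, the proteins of Arntl (also called Bmal1) and Clock pair up and activate genes that carry E-boxes in their control regions. The PER and CRY proteins made from such genes return to the nucleus and block the pair, which closes a daily loop. A second loop runs through the nuclear receptors of the REV-ERB and ROR families, which act on Arntl, and DBP with its relatives drives output genes through D-boxes. In the adrenal cortex this clock is known to take part in the daily rhythm of glucocorticoid release and to set how strongly the gland answers corticotropin.

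Total depth was 31838341 expected counts in replicate 1 and 32931868 in replicate 2. The adrenal identity of both samples was clear from their markers, with sums for the cortex of 5938 and 6508 TPM and for the medulla of 1301 and 1514 TPM. Of these, 5 of 6 cortex markers and all 4 medulla markers were lower in replicate 1, with medulla log2 ratios of -0.37 to -0.22. Genes of other organs differed between the animals. The 5 pancreas markers, all higher in replicate 1, summed to 3293 TPM there and to 0.51 TPM in replicate 2, where Cela2a and Ins2 were at 0, and the 5 kidney markers, also all higher in replicate 1, summed to 86.4 and 8.83 TPM. All 5 liver markers and all 5 skeletal muscle markers were lower in replicate 1, with sums of 115 against 478 TPM and of 336 against 2108 TPM. The 3 erythroid markers were all higher in replicate 1, at 3640 against 2625 TPM, the 5 macrophage markers all lower, at 70.5 against 100.3 TPM, and the 2 brown fat markers summed to 165 and 162 TPM. The part of these tissues in the clock gene values below was not tested, and in whole glands fewer cells of a type and less RNA per cell cannot be told apart.

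The clock acts through short motifs in control regions, so 5 promoter windows of its own genes that carry such motifs are printed here, at least 1 for each motif found. RefSeq promoter windows on GRCm38.p6, from 250 bases before a transcript start to 50 bases after it, matched 9 of the 10 genes in 13 windows. They were searched on both strands for the E-box CACGTG, its variant CACGTT, the D-box TTATGTAA and its variant TTACGTAA, and the half-sites TAGGTCA and GGGTCA of the REV-ERB and ROR receptors. The cAMP response element TGACGTCA and the consensus glucocorticoid response element were searched as well, and none of the matches found overlapped another. In the sequences, given 5′ to 3′ on the strand of the gene, capitals mark every match. Ciart (chr3:95882179-95882478, minus strand) held 3 E-boxes, Cry1 (chr10:85185005-85185304, minus strand) an E-box beside its variant read on the other strand, and Per1 (chr11:69098699-69098998, plus strand) a single E-box. Per3 (chr4:151044616-151044915, minus strand) held 2 D-boxes, and a window of Arntl (chr7:113207261-113207560, plus strand) held a receptor half-site downstream of the start.
Ciart: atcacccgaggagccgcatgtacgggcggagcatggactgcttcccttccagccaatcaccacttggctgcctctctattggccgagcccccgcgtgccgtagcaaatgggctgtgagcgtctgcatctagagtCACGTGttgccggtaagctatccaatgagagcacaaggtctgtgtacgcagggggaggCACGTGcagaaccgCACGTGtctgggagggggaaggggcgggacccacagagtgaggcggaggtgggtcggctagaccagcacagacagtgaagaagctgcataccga
Cry1: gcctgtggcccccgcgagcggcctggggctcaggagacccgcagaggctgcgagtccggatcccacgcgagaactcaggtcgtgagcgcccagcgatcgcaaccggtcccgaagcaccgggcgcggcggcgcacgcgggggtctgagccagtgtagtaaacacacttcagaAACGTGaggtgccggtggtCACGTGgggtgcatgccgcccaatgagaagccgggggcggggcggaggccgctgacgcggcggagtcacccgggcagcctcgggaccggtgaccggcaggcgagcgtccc
Per1: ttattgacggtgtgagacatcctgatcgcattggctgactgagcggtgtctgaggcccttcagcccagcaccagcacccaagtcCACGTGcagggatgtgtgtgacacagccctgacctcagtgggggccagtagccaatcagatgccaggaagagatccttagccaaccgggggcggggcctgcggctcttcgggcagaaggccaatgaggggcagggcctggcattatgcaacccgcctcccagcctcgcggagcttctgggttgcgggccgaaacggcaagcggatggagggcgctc
Per3: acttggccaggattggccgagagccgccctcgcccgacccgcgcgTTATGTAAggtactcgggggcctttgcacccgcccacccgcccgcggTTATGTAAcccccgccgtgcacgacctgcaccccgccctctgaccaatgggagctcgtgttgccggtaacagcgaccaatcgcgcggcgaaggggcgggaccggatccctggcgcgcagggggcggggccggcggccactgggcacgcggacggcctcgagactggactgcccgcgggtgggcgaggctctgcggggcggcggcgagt
Arntl: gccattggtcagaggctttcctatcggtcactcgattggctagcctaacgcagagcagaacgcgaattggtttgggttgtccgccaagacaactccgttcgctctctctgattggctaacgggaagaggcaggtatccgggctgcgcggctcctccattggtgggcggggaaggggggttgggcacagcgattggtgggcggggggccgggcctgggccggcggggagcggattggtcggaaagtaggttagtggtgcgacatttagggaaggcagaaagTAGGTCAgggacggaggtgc

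Of all 32851 RefSeq promoter windows, 7.15% held CACGTG and 0.0883% held at least 3 copies, as Ciart did. TTATGTAA was in 0.938% of windows, and 7 windows (0.0213%), that of Per3 among them, held at least 2 copies. Both copy numbers are those found in Ciart and Per3, so these shares describe the windows and are no test. The half-site TAGGTCA was in 2.61% and the variant CACGTT, also found in a Cry2 window that is not printed, in 4.68%. The first bases of the E-boxes of Ciart lay 116, 58 and 44 bases upstream of the start, that of Cry1 60 bases and that of Per1 166 bases upstream. The D-boxes of Per3 began 205 and 158 bases upstream. TTACGTAA (0.119% of windows), GGGTCA (13.7%), TGACGTCA (1.79%) and the glucocorticoid response element (0.475%) were in none of the 13 windows, and those of Clock, Npas2 and Dbp held no match at all. No match says only that these letters are not in these windows. The windows are those of the reference build, and the alleles of these hybrid mice were not examined.

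**Figure D1:**
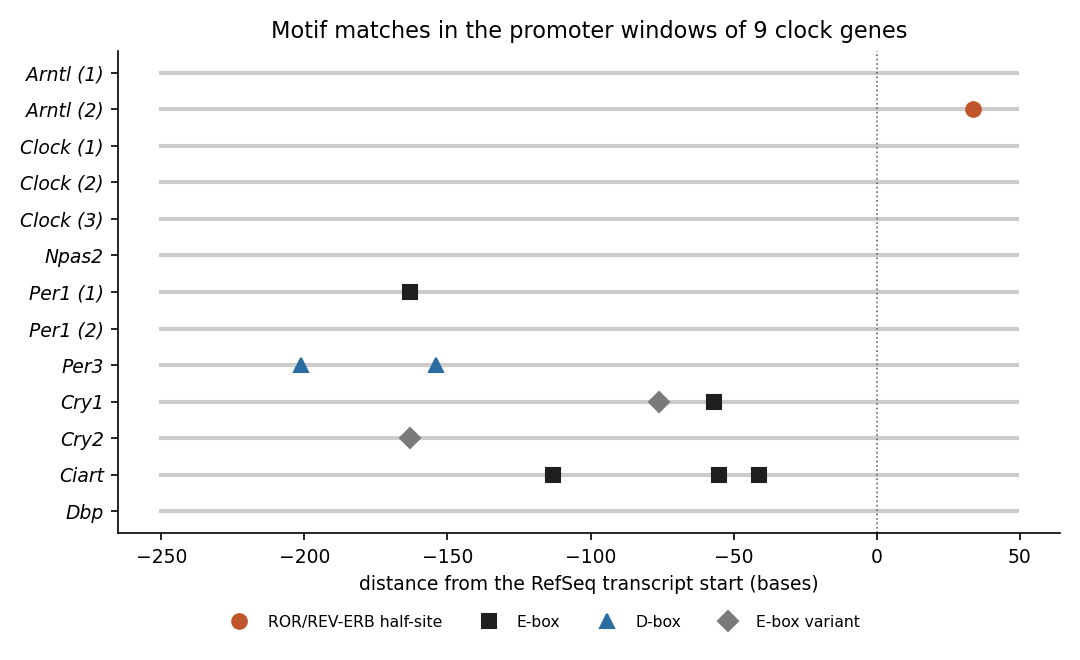
Motif matches in the 13 RefSeq promoter windows of 9 clock genes, by distance in bases from the transcript start (dotted line); grey bars are the windows, numbered within a gene by position on the chromosome. Ciart carries 3 E-boxes and Per3 carries 2 D-boxes, while the windows of Clock, Npas2 and Dbp carry none of the 8 motifs.

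The genes lie on 8 chromosomes of the build mm10, with Arntl and Dbp both on chromosome 7 and Npas2 and Per2 both on chromosome 1. Arntl (ENSMUSG00000055116.8) spans chr7:113207465-113314126 on the plus strand, Clock (ENSMUSG00000029238.11) chr5:76209868-76304792 on the minus strand, and Npas2 (ENSMUSG00000026077.15) chr1:39193731-39363236 on the plus strand. Per1 (ENSMUSG00000020893.17) spans chr11:69095217-69109960 on the plus strand, Per2 (ENSMUSG00000055866.9) chr1:91415982-91459324 and Per3 (ENSMUSG00000028957.12) chr4:151003652-151044665 on the minus strand. Cry1 (ENSMUSG00000020038.10) spans chr10:85131700-85185064, Cry2 (ENSMUSG00000068742.11) chr2:92403646-92434043 and Ciart (ENSMUSG00000038550.10) chr3:95878503-95882251, all on the minus strand, and Dbp (ENSMUSG00000059824.12) chr7:45705088-45710203 on the plus strand. Dbp overlaps Sphk2, which had 1127 expected counts in replicate 1 and 1122 in replicate 2, on the opposite strand, and Ciart overlaps the antisense gene C920021L13Rik, which had 36 and 39. On the same strand, Per3 overlaps Camta1, with 992 and 914 counts, and Clock overlaps the pseudogene Ube2n-ps1, with 444 and 482. The libraries were stranded per the labels, but the strand setting of the counting is not stated, so reads from overlapping genes may be shared out uncertainly.

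All clock genes except Ciart were expressed above 1 TPM in both glands. The activators stood at moderate levels. Clock, the partner that is also a histone acetyltransferase, measured 13.1 TPM in replicate 1 and 12.7 TPM in replicate 2, a mean of 12.9 ± 0.269 TPM (SD, n = 2). Arntl, the partner without which the loop stops in mice, measured 11.3 and 10.2 TPM, a mean of 10.7 ± 0.785 TPM (SD, n = 2). Npas2, the paralog that can take the place of Clock, was the lowest activator at 3.39 and 3.77 TPM, a mean of 3.58 ± 0.269 TPM (SD, n = 2). The levels of the 3 activators did not overlap between genes in either animal.

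The repressors covered a wider range. Per1, a PER gene that cAMP and glucocorticoids can also induce directly, was the highest of them, with 35.5 and 41.7 TPM and a mean of 38.6 ± 4.38 TPM (SD, n = 2). Per2, the PER gene whose loss disrupts the rhythm in mice, stood at 9.68 and 9.13 TPM, a mean of 9.41 ± 0.389 TPM (SD, n = 2). Per3, a PER gene that the rhythm in mice can largely do without, stood at 7.42 and 6.23 TPM, a mean of 6.83 ± 0.841 TPM (SD, n = 2). Per1 was therefore above the other PER genes by a log2 ratio to Per2 of 1.87 in replicate 1 and 2.19 in replicate 2. Of the cryptochromes, which bind the activator pair on DNA and repress it, Cry2 measured 20.9 and 19.9 TPM, a mean of 20.4 ± 0.686 TPM (SD, n = 2). Cry1, the stronger repressor of the pair in mice, measured 6.72 and 6.75 TPM, a mean of 6.74 ± 0.0212 TPM (SD, n = 2), so Cry2 was the higher cryptochrome in both animals. The near-equal TPM of Cry1 stood on unequal expected counts, 569 in replicate 1 and 629 in replicate 2. Its deposited effective length was 2749 bases in replicate 1 and 2927 in replicate 2.

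Ciart, a repressor that binds Arntl and is also called Chrono, was near the detection limit. It had 28 expected counts in replicate 1 and 15 in replicate 2, or 0.78 and 0.32 TPM, a mean of 0.550 ± 0.325 TPM (SD, n = 2). The second quantification, a deposited transcript table that the authors' notes derive from the read files, summed here to genes, put Ciart at 2.72 and 0.754 TPM on 32.0 and 17.0 estimated counts. Dbp, the output regulator that follows the activator pair closely, measured 35.9 and 32.0 TPM, close to Per1 in replicate 1 and below it in replicate 2, a mean of 33.9 ± 2.79 TPM (SD, n = 2). The rank among nuclear protein-coding genes, of which 13054 reached 1 TPM in both animals, was 1927 for Per1, 2306 for Dbp and 11108 for Npas2.

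**Figure D2:**
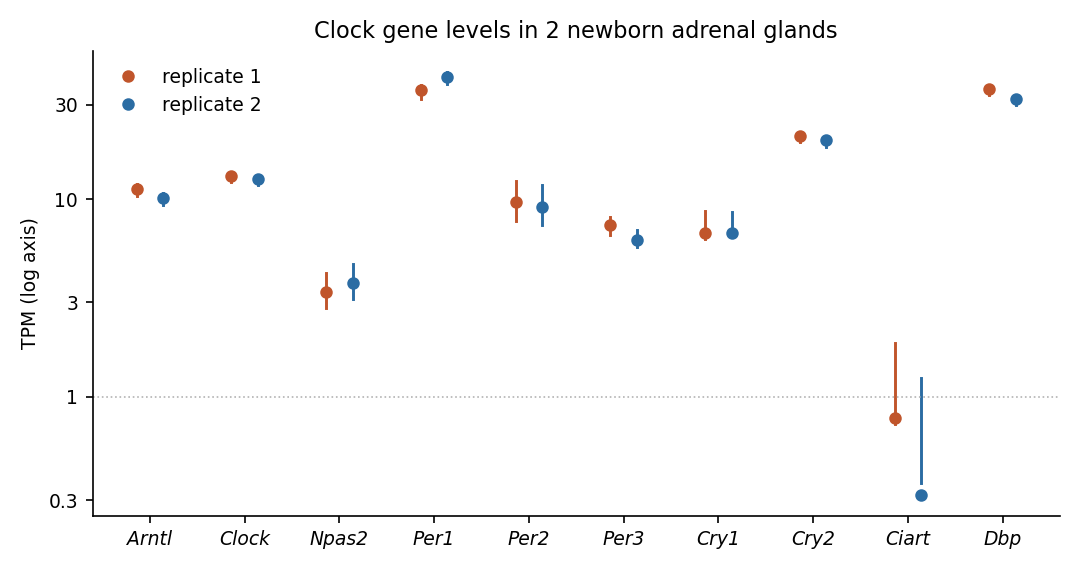
TPM of the 10 clock genes in replicate 1 (orange) and replicate 2 (blue), on a log axis; points are the deposited TPM and bars the authors' credibility intervals, which belong to a posterior mean and need not be centred on the point. The points of Per1 and Dbp lie above 30 TPM in both animals. Those of Ciart lie below the dotted line at 1 TPM, but its bars cross that line in both animals. The replicate 2 point of Ciart, at 0.32 TPM, lies below its own bar of 0.37 to 1.25 TPM.

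From high to low the means ran Per1, Dbp, Cry2, Clock, Arntl, Per2, Per3, Cry1, Npas2 and Ciart. The ranges over the animals overlapped for 2 neighbouring pairs in this order, Per1 with Dbp and Per3 with Cry1, and not for the other 7 pairs. The second quantification set every one of the 10 genes higher, from 1.26-fold for Per1 to 3.16-fold for Ciart. TPM depends on which transcripts share the total, and the share of all genes set higher there is not given. Rescaling the first TPM to nuclear protein-coding genes also raised all 10 levels, with Arntl at 29.4 TPM and Per1 at 106 TPM. The second quantification placed Dbp first, at 61.4 and 52.8 TPM in replicates 1 and 2, and Per1 second, at 44.6 and 52.8 TPM. The order of the other 8 genes was unchanged there. Arntl, for example, measured 20.2 and 18.3 TPM there. Npas2 measured 4.45 TPM in replicate 1 and 7.2 TPM in replicate 2 there, further apart than in the first quantification.

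**Figure D3:**
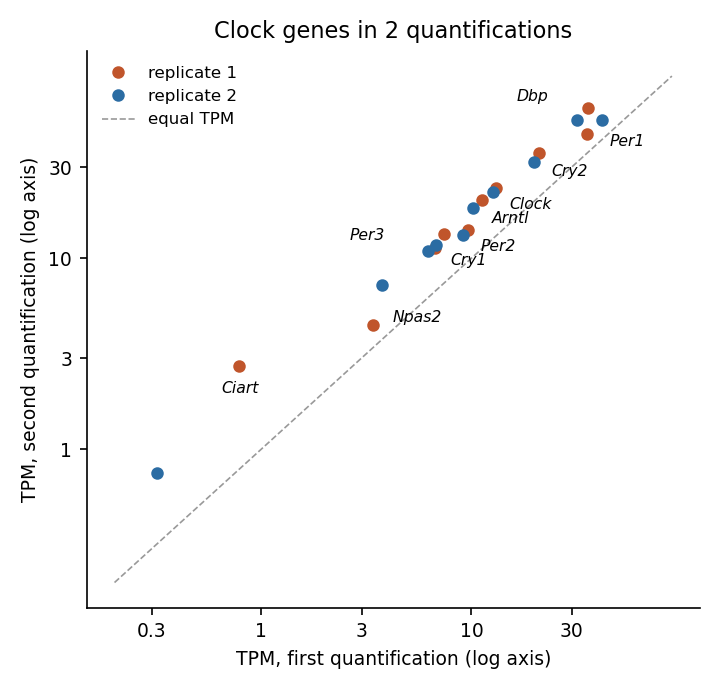
TPM of each clock gene in the first quantification (x axis) and the second (y axis), both on log axes, for replicate 1 (orange) and replicate 2 (blue). All points lie above the dashed line of equal TPM, and Per1 lies nearest to it, at 1.26-fold for the mean of both animals.

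The transcripts behind these levels differed in kind. Per2 and Cry1 rested almost wholly on a single protein-coding transcript. Per2-201 held 99.5% of the expected counts of Per2 in both animals, and Cry1-201 held 99.0% of those of Cry1 in replicate 1 and 100% in replicate 2. Cry2-201, the longest transcript of Cry2, held 84.0% of its counts in replicate 1 and 84.9% in replicate 2, and the processed transcript Cry2-203 held 8.69% and 7.87%. For Clock, the protein-coding transcripts Clock-205 and Clock-201 shared the gene. Clock-205 was the higher by TPM in the first quantification, with 39.8% in both animals, and Clock-201 in the second, with 35.8% in replicate 1 and 40.9% in replicate 2.

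A few short transcripts carried much of the TPM on few reads, which bears on the level of their genes. Per1-204, a protein-coding record of 496 bases, held 4.05% of the expected counts of Per1 in replicate 1 and 3.88% in replicate 2, but 31.1% and 30.2% of its TPM, and it was at 0 in the second quantification. Per2-202, of 231 bases, had 6.94 and 6.34 expected counts and yet 17.6% and 16.5% of the TPM of Per2, and it too was at 0 in the second quantification. Npas2-203, of 484 bases, rested on 11.4 and 19.0 expected counts and held 28.3% and 41.1% of the TPM of Npas2. In the second quantification Npas2-203 held 9.45% of that TPM in replicate 1 and 45.8% in replicate 2, on few estimated counts, 1.47 in replicate 1 and 11.95 in replicate 2. The full-length Per1-201 alone measured 17.6 TPM in replicate 1 and 20.9 TPM in replicate 2, against 20.6 and 19.3 TPM for Dbp-201, so the order of these leading transcripts differed between the animals.

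Dbp and Per3 had the largest shares of transcripts that are not annotated as protein-coding. Dbp-205, a retained intron transcript, held 22.8% of the expected counts of Dbp in replicate 1 and 19.5% in replicate 2. For Per3, transcripts of retained intron, nonsense-mediated decay and processed classes together held 50.2% of its counts in replicate 1, or 496 counts, and 20.2% in replicate 2, or 204 counts. The protein-coding Per3-201 had 492 counts in replicate 1 and 804 in replicate 2, and Per3-204, a processed transcript, had 131 and 0. Of 10215 protein-coding genes tested that have both kinds of transcript, 22 (0.215%) differed at least as much in this direction, a comparison made for Per3 after its values were seen. The second quantification gave 44.9% in replicate 1 and 21.9% in replicate 2. The deposited effective length of Per3 was 4323 bases in replicate 1 and 5083 in replicate 2, so its TPM was higher in replicate 1 while its expected counts, 988 and 1008, were nearly level.

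The 5 clock genes with retained intron transcripts, Arntl, Clock, Per3, Cry1 and Dbp, all had the larger share on them in replicate 1, but so did 75.5% of the 7584 genes with such transcripts. In Arntl they held 8.88% of the counts in replicate 1 and 6.26% in replicate 2, in Clock 8.89% and 7.26%, and in Cry1 1.05% and 0%. Over the 5 genes the pooled share was 14.7% in replicate 1 and 11.0% in replicate 2, and over all such genes 8.70% and 7.25%. In the second quantification the share was again larger in replicate 1 for all 5, and for 73.4% of all such genes. The movement in the clock genes was thus in the direction of most genes, and the part of the other-tissue markers in it was not tested. Within the protein-coding transcripts, Arntl-206 held 25.9% of the counts of Arntl in replicate 1 and 11.7% in replicate 2, with Arntl-201 at 65.3% and 79.4%.

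**Figure D4:**
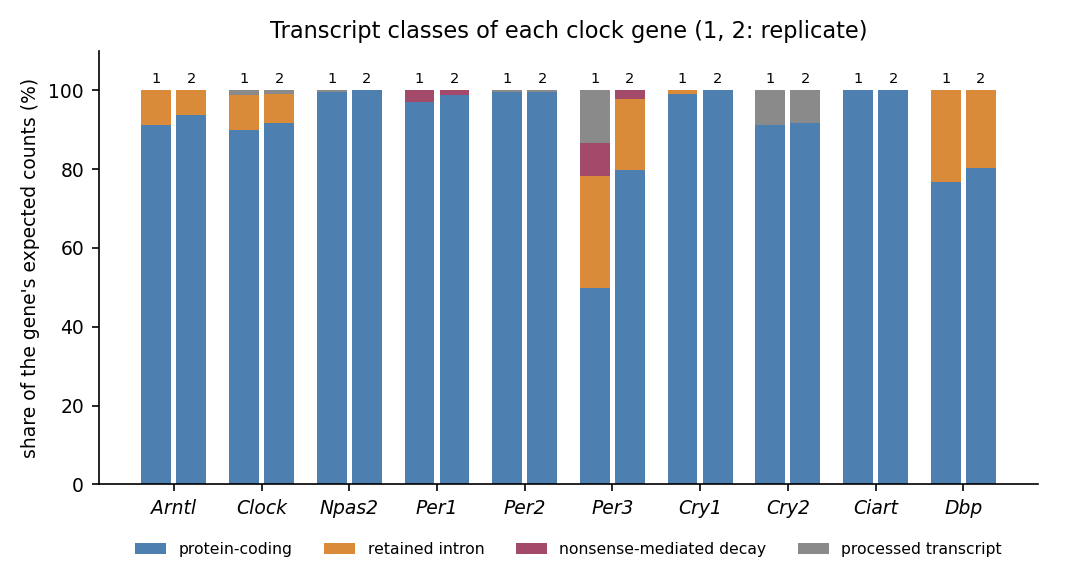
Share of each clock gene's expected counts held by 4 annotated transcript classes, in percent, with replicate 1 left of replicate 2 for each gene. The protein-coding share of Per3 is 49.8% in replicate 1 and 79.8% in replicate 2, while Ciart has protein-coding transcripts only.

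Of the 9 clock genes tested, Per1 differed most between the animals. Its log2 ratio still lay between percentile 5 and percentile 95 of all genes tested, which were -0.36 and 0.39. Ratios of replicate 1 over replicate 2 were taken from expected counts scaled by TMM. The libraries were compared by a two-sided exact binomial test, with Benjamini-Hochberg adjustment over all 13735 genes whose mean count reached 100, which is no test between conditions. Per1 had 3327 expected counts in replicate 1 and 4110 in replicate 2, the most of any clock gene. Its log2 ratio was therefore -0.30 (-0.37 to -0.23 as a 95% counting interval, adjusted p = 6.1e-18 by the exact binomial test). It was the only one of the 9 clock genes tested to pass, against 33.2% of all genes tested in either direction and 18.8% in its own. With spike-in scaling 3 passed: Dbp and Cry2 as well, with log2 ratios of 0.20 and 0.15, and adjusted p in the exact binomial test of 0.000452 and 0.00438. Under that scaling 37.4% of all genes tested passed, 27.6% higher and 9.83% lower in replicate 1. Under TMM, DESeq2 size factors, the second quantification, no count filter and a larger prior count, the adjusted p ran from 0.0569 to 0.145 for Dbp and from 0.257 to 0.403 for Cry2.

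No clock gene tested reached a 2-fold difference, against 3.21% of all genes tested, and 0 of 9 reached 1.5-fold, against 5.52%. Their median absolute log2 ratio was 0.07, against 0.11 over all genes tested, and 4 were higher and 5 lower in replicate 1. With spike-in scaling Clock, Npas2 and Per3 changed sign, to log2 ratios of 0.03, 0.06 and 0.05. Dbp had 1735 counts in replicate 1 and 1604 in replicate 2, a log2 ratio of 0.12 (0.02 to 0.22, adjusted p = 0.0569 in the exact test). Cry1 had 569 and 629 counts, a log2 ratio of -0.14 (-0.31 to 0.03). The activators lay near 0, with log2 ratios of 0.07 for Arntl on 908 and 866 counts, -0.05 for Clock on 2651 and 2754 counts and -0.02 for Npas2 on 307 and 312 counts. Per2 and Per3 stood at 0.02 and -0.03 on 1415 and 1397 and on 988 and 1008 counts, and Cry2 at 0.07 on 2111 and 2020. Ciart, under the count minimum and so not tested, stood at 0.88, with -0.05 to 1.91 as its counting interval.

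Genes that work around these 10 were read from a list of 24 partners, of which 22 had enough counts in the first quantification. Rorb, at 0.40 and 0.36 TPM, and Arntl2, at 1.3 and 0.85 TPM in replicates 1 and 2, fell short there. In the second quantification both met the count minimum, with 123 and 125 estimated counts for Rorb and 156 and 135 for Arntl2. Of the 22, the exact binomial test was passed by 3 partners higher in replicate 1, against 14.4% of all genes tested, and by 3 lower in replicate 1, against 18.8%. The REV-ERB genes Nr1d1 and Nr1d2, repressors of Arntl, were both higher in replicate 1. Nr1d1 measured 37.3 TPM there and 30.7 TPM in replicate 2, a log2 ratio of 0.23 (0.15 to 0.31, adjusted p = 9.98e-08 in the exact test), and Nr1d2 21.7 and 18.0 TPM, a log2 ratio of 0.13 (0.05 to 0.22, adjusted p = 0.0104 in the exact test). Nr1d2 did not pass in the second quantification, with an adjusted p of 0.0592 in the exact test and of 1.06e-05 to 0.0179 over the other alternatives tested. Gsk3b, a kinase gene acting on several clock proteins, was the third, with a log2 ratio of 0.10 (adjusted p = 0.000486 in the exact test). The opposite strand of Nr1d1 is overlapped by Thra, with 4001 and 4136 counts.

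Bhlhe40, also called Dec1, a repressor that competes for E-boxes, was the partner furthest from 0. It measured 15.9 TPM in replicate 1 and 23.4 TPM in replicate 2, on 1215 and 1760 counts, a log2 ratio of -0.53 (-0.64 to -0.42, adjusted p = 6.38e-22 in the exact test). Nfil3, the repressor that opposes DBP at D-boxes, measured 9.72 and 11.0 TPM, and Nampt, the clock-driven enzyme gene of NAD salvage, 14.3 and 16.3 TPM, with log2 ratios of -0.22 (-0.39 to -0.06) and -0.17 (-0.27 to -0.07) and adjusted p of 0.0219 and 0.00354 in the exact test. Neither of the last pair passed with spike-in scaling, at adjusted p of 0.164 and 0.157. Over the other alternatives, their adjusted p in the exact test ran from 0.0161 to 0.0374 for Nfil3 and from 7.27e-05 to 0.00619 for Nampt. Replicate 1 thus had less Per1 and Bhlhe40 and more Nr1d1 than replicate 2. All medulla, liver and skeletal muscle markers, all cortex markers but Cyp11b2, and the 5 macrophage markers, at log2 ratios of -0.70 to -0.36, were lower there too. All pancreas, kidney and erythroid markers were higher in replicate 1, and the brown fat markers went either way. The part of any of these cells in the ratios was not tested.

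**Figure D5:**
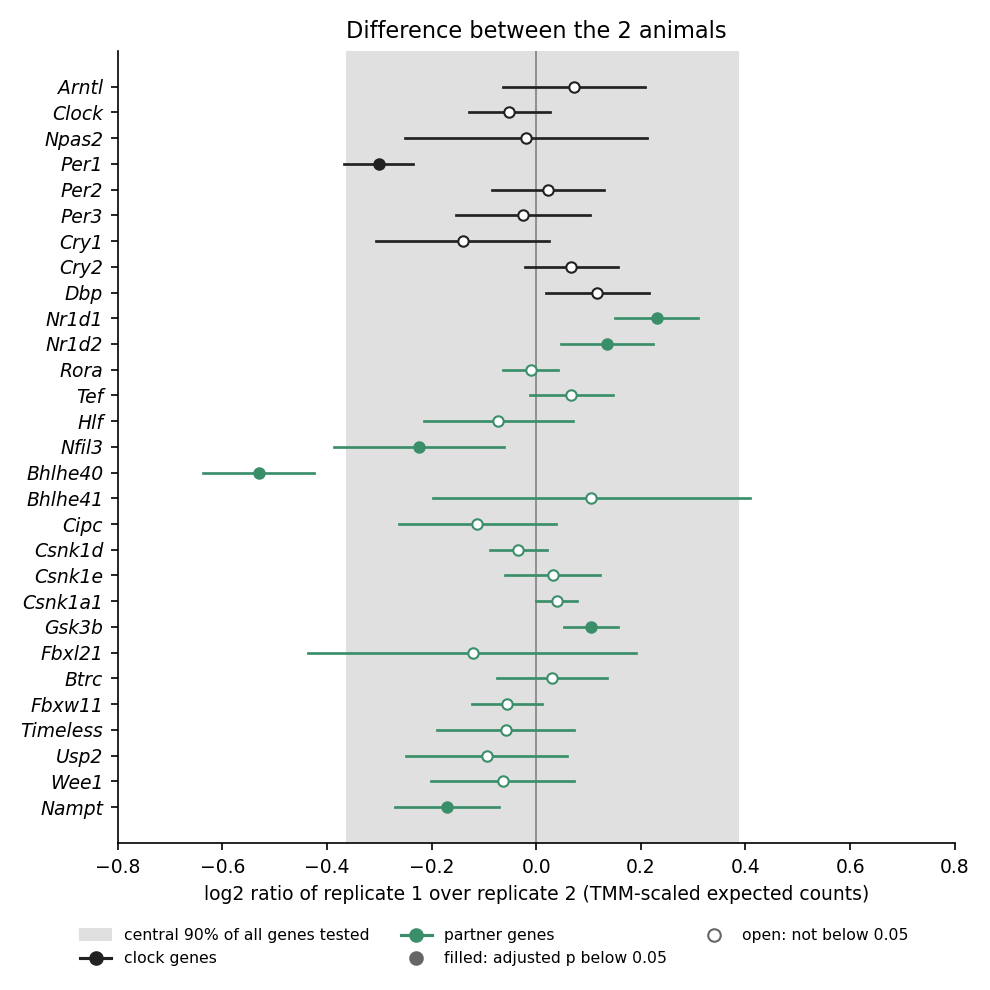
Log2 ratio of replicate 1 over replicate 2 for the 9 tested clock genes (black) and the tested partners named in the text (green), with 95% counting intervals; filled points have an adjusted p below 0.05 in the exact binomial test, and the grey band runs from percentile 5 to percentile 95 of all genes tested. Per1 at -0.30 lies inside the band of -0.36 to 0.39, and Bhlhe40 at -0.53 lies outside it.

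The remaining 16 tested partners did not pass the test under TMM scaling. With spike-in scaling, under which 37.4% of all genes tested passed, Csnk1a1, Tef, Rora and Csnk1e passed, all higher in replicate 1. Their adjusted p in the exact binomial test was then 2.51e-08, 0.0013, 0.028 and 0.0455, in that order. Rora, the ROR gene that activates Arntl, measured 34.2 and 32.4 TPM in replicates 1 and 2. Among the relatives of Dbp, which bind the same D-boxes, Tef stood at 30.2 and 24.6 TPM and Hlf at 6.07 and 5.34 TPM. Of the kinase genes whose products phosphorylate PER proteins, Csnk1a1 led at 126 and 122 TPM, ahead of Csnk1d at 58.8 and 58.0 TPM and Csnk1e at 39.8 and 37.2 TPM. Fbxl21, a ubiquitin ligase gene acting on CRY proteins, was low at 2.95 and 3.02 TPM. Fbxw11 and Btrc, ubiquitin ligase genes acting on PER proteins, measured 39.8 and 39.7 TPM and 16.7 and 16.2 TPM. Bhlhe41, the paralog of Bhlhe40, was low at 1.88 and 1.43 TPM, and Cipc, an inhibitor of CLOCK, stood at 8.38 and 8.10 TPM. The cell cycle kinase gene Wee1, an output of the clock in mouse liver, measured 8.38 and 8.50 TPM, Usp2, a deubiquitinase gene, 7.79 and 9.07 TPM, and Timeless, a replication fork gene, 12.1 and 10.5 TPM.

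Ratios between clock genes within an animal remove the scaling between libraries. Dbp exceeded Arntl by a log2 ratio of 1.67 in replicate 1 and 1.65 in replicate 2, a mean of 1.66 ± 0.01 (SD, n = 2). Nr1d1 exceeded Arntl by 1.73 and 1.60, and Per1 exceeded Arntl by 1.66 and 2.04. In many mouse tissues Dbp, Nr1d1 and the PER genes are known to peak at other hours than Arntl, so such ratios vary over the day, but a single time for each animal places neither gland in the cycle. Among paralogs, Clock exceeded Npas2 by 1.85 ± 0.14, Arntl exceeded Arntl2 by 3.33 ± 0.32, and Cry1 was below Cry2, with a log2 ratio of -1.60 ± 0.05 (SD, n = 2). The size of the Arntl to Arntl2 gap depended on the quantification, with a mean log2 ratio of only 1.52 in the second. Arntl2 rested on 52 expected counts in each animal in the first. Clock to Npas2 and Cry1 to Cry2 moved less, to means of 2.00 and -1.55 in the second quantification. Dbp exceeded its relatives Tef by 0.31 ± 0.09 and Hlf by 2.57 ± 0.01, and its opponent Nfil3 by 1.71 ± 0.25 (SD, n = 2), all as log2 ratios. In every one of these 9 pairs the gene on top was the same in both animals.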

How the data were processed

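Total RNA libraries from 300 ng of adrenal RNA of 2 mice aged 4 days were depleted of ribosomal RNA, per the labels. Per the file headers, the authors deposited gene and transcript tables with expected counts, TPM, a posterior mean TPM and bounds of a credibility interval, and a second transcript table with estimated counts and TPM, called the second quantification; the authors' notes name mm10 and M21. Neither source names the aligner or quantifiers. Expected counts were rounded. Features other than annotated genes held 0.901% and 0.923% of the counts and stayed out of library sizes.

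Log2 ratios of replicate 1 over replicate 2 used TMM (edgeR 4.0.16, R 4.3.3) and a prior of 0.5 counts, for genes whose mean count reached 100; alternatives used DESeq2 1.42.0 size factors, ERCC counts, deposited TPM, the second quantification, a prior of 2 counts and no filter. Pairs used a pseudocount of 0.01 TPM. Intervals are 95% exact binomial intervals and cover counting error only, since PCR copies cannot be told from independent molecules here. The steps were tested on simulated data. Named genes were the members, the partner list and transcripts with at least 10% of a member's TPM. The members and lists were chosen with earlier results of these data known. With 1 group there is no comparison of conditions. Protein identities of paralogs were not analysed here, and some partners are counted but not reported here by name. Python 3.11.15, pandas 2.3.3 and scipy 1.17.1 were used.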

Additional observations from a re-analysis of the deposited data

How the results depend on the processing

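No paired analysis was possible because the samples form 1 group. Leaving out either animal moved no level, leading transcript share or ratio within an animal by more than its SD, which holds by construction with 2 animals. Of the clock genes, 1 passed the exact binomial test under TMM, DESeq2 size factors, the second quantification, no filter, a prior of 2 counts and Bonferroni adjustment, and 3 passed with spike-in scaling. Spike-in scaling turned the log2 ratios of Clock (0.0288), Npas2 (0.0605), Per3 (0.0548), Rora (0.0695), Hlf (0.00733), Csnk1d (0.0457), Fbxw11 (0.0235), Timeless (0.0217) and Wee1 (0.0164) to positive, and the median over all genes moved to 0.06. Deposited TPM turned those of Clock (0.0425), Per3 (0.25), Rora (0.0776), Hlf (0.18), Cipc (0.0490), Csnk1d (0.0185), Fbxw11 (0.00109) and Timeless (0.21) to positive, and the second quantification that of Csnk1e to -0.00245. None of these genes passed under TMM, but Rora passed in the turned direction with spike-in scaling (adjusted p = 0.028 in the exact test; 0.355 to 0.914 otherwise). Csnk1d and Fbxw11 passed, still negative, in the second quantification (adjusted p = 0.0277 and 0.0333 in the exact test; 0.198 to 0.527 and 0.167 to 0.637 otherwise). Of the partners, 6 passed under TMM, 9 with spike-in scaling and 7 in the second quantification. Of all genes tested, 33.2% passed under TMM and 37.4% with spike-in scaling. No share is given for the second quantification or the other settings, so the counts of clock genes and partners there have no background beside them. Rorb and Arntl2 also met the count minimum in the second quantification. The cause of the differences between these counts was not tested. The list median of -0.02 ranged from -0.02 to 0.07 over the alternatives. All 10 levels were higher in the second quantification, and also when TPM was rescaled to nuclear protein-coding genes. The share of all genes higher in the second quantification is not given. Of the 15 ratios within an animal, 7 moved by more than their SD in the second quantification. Depth limits Ciart, on 28 and 15 counts, most.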
